A study of Mus musculus with 20 samples.

Results

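Type I interferon-stimulated genes were followed in mouse liver across genotype and treatment with an antagonist of Toll-like receptors 7 and 9. The genes were chosen by name, as 47 symbols looked up in the probe annotation of the array, and by detection of at least 1 probe (detection p under 0.05 on 5 or more of 20 arrays). The names were picked with earlier results of these data known, so counts of these genes are not independent of that choice. Of the 47 genes, 38 passed and are described here, out of 12976 genes and unnamed probes that were tested. They rested on 57 of 18285 probes kept. Ifit1, Mx1, Oas1a, Oas1b, Parp9 and Xaf1 had probes that did not pass, and Herc6, Ddx60 and Ifi203 were not analysed here. The filter asks for detection on any 5 arrays, so a gene seen in 1 group alone can pass through that group. Of the 38 genes, 29 were detected on all 20 arrays, and counts are given for these as well.

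Type I interferons are secreted proteins made when cells sense foreign or misplaced nucleic acid. They bind a receptor built of Ifnar1 and Ifnar2, whose kinases Jak1 and Tyk2 pass the signal on. A complex that holds Stat2 and Irf9 then binds the interferon-stimulated response element, a short DNA motif, and switches on many antiviral genes. Toll-like receptors 7 and 9 sense RNA and DNA in endosomes and are well known as triggers of interferon in plasmacytoid dendritic cells, while the liver also holds Kupffer cells, its resident macrophages, which respond to and can make interferon.

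The 20 arrays came from total liver RNA of male mice on the C57BL/6 strain, all fed a high fat diet and sampled at 14 weeks of age. Treated ApoE-/- mice, which lack apolipoprotein E, were set against untreated ApoE-/- mice, and treated wild-type mice against untreated wild-type mice, with 5 arrays in each group. Treated mice had intraperitoneal injections of the antagonist at 15 mg/kg, 3 a week, between weeks 6 and 11, so that dosing ended before the livers were taken. Untreated mice had no antagonist, and the labels do not mention a vehicle. The diet of ApoE-/- mice held 21% fat and 0.15% cholesterol, against 35% fat and 0.03% cholesterol for wild-type mice, so genotype and diet formula cannot be told apart. The labels number the replicates of a group without naming separate animals. The p-values therefore speak of array-to-array spread within a group, some of which may be technical.

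The arrays matched their genotype labels, with Apoe at a mean log2 signal of 6.00 and 6.55 in treated and untreated ApoE-/- livers, against 14.03 and 14.25 in treated and untreated wild-type livers. Between 15816 and 17598 probes were detected in treated ApoE-/- livers and between 15530 and 16660 in untreated ones. In wild-type livers 16051 to 18748 probes were detected with the antagonist and 14436 to 16032 without it. The form of the array names split the arrays into 2 batches, with replicates 1 to 3 of every group in batch 1 and replicates 4 and 5 in batch 2. Replicates 4 and 5 of the untreated ApoE-/- group shared a slide that held no other group. The array names gave slides in batch 2 alone, so fits with slides as blocks counted batch 1 as a single slide. In those fits replicates 4 and 5 of the untreated ApoE-/- group, alone on their slide, add nothing to the size of a contrast. Hepatocyte markers were high everywhere, with a summed signal of 150700 to 161100 in treated and 145300 to 157200 in untreated ApoE-/- livers, and of 145200 to 164000 in treated and 129300 to 153500 in untreated wild-type livers.

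Every interferon-stimulated gene that passed limma's test, fitted without a block, was higher in antagonist-treated livers, in both genotypes. In ApoE-/- livers 15 of the 38 measured genes passed (adjusted p under 0.05), against 29.6% of all genes tested. All 15 rose, against 16.3% of all genes that rose, and 0 fell, against 13.3%. In wild-type livers 28 passed, against 38.4% of all genes. All 28 rose, against 21.7% of all genes, and 0 fell, against 16.7%. At an unadjusted p under 0.05, 23 were higher and 2 lower in treated ApoE-/- livers, against 2780 and 2356 of all 12976 tested. In treated wild-type livers 31 were higher and 0 lower, against 3313 and 2701 of all tested. The 0 that fell in ApoE-/- livers depended on the setting: Ddx58 passed as lower (-0.49 to -0.41) with replicate number or batch as a block, with detection on at least 10 arrays, or without treated ApoE-/- replicate 1 or 5, untreated ApoE-/- replicate 4 or untreated wild-type replicate 3 or 5, and Parp12 with slides as blocks (-0.43) or without treated ApoE-/- replicate 1 (-0.36). The median change of the 38 was 0.42 (log2) in ApoE-/- and 0.69 in wild-type livers, beside medians of 0.01 and -0.0006 over all genes. Of the 29 genes detected on all arrays 12 rose in ApoE-/- and 21 in wild-type livers. All 5 treated arrays lay above all 5 untreated arrays for 11 genes in ApoE-/- livers (10.5% of all genes) and for 24 in wild-type livers (16.6% of all genes). In whole liver, more cells of a type and more RNA per cell cannot be told apart.

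With the replicate number as a block, 17 rose and 1 fell in ApoE-/- livers, against 19.8% and 16.5% of all genes. In wild-type livers 31 rose and 0 fell, against 24.5% and 20.2% of all genes. The calls gained were Rsad2 (adjusted p = 0.0492), Ifitm2 (adjusted p = 0.0126) and, as a fall, Ddx58 (-0.41, adjusted p = 0.0107) in ApoE-/- livers, and Isg15 (adjusted p = 0.0128), Ifih1 (adjusted p = 0.0443) and Ddx58 (0.34, adjusted p = 0.0257) in wild-type livers.

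In the fit without a block both genotypes shared 14 of the risen genes, 14 passed in wild-type livers alone, Zbp1 passed in ApoE-/- livers alone and 9 passed in neither. A gene that passed in 1 genotype alone is not thereby shown to differ between them, and the test of that difference is given further on. The heat map of all measured members shows the 4 groups array by array.

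**Figure D1:**
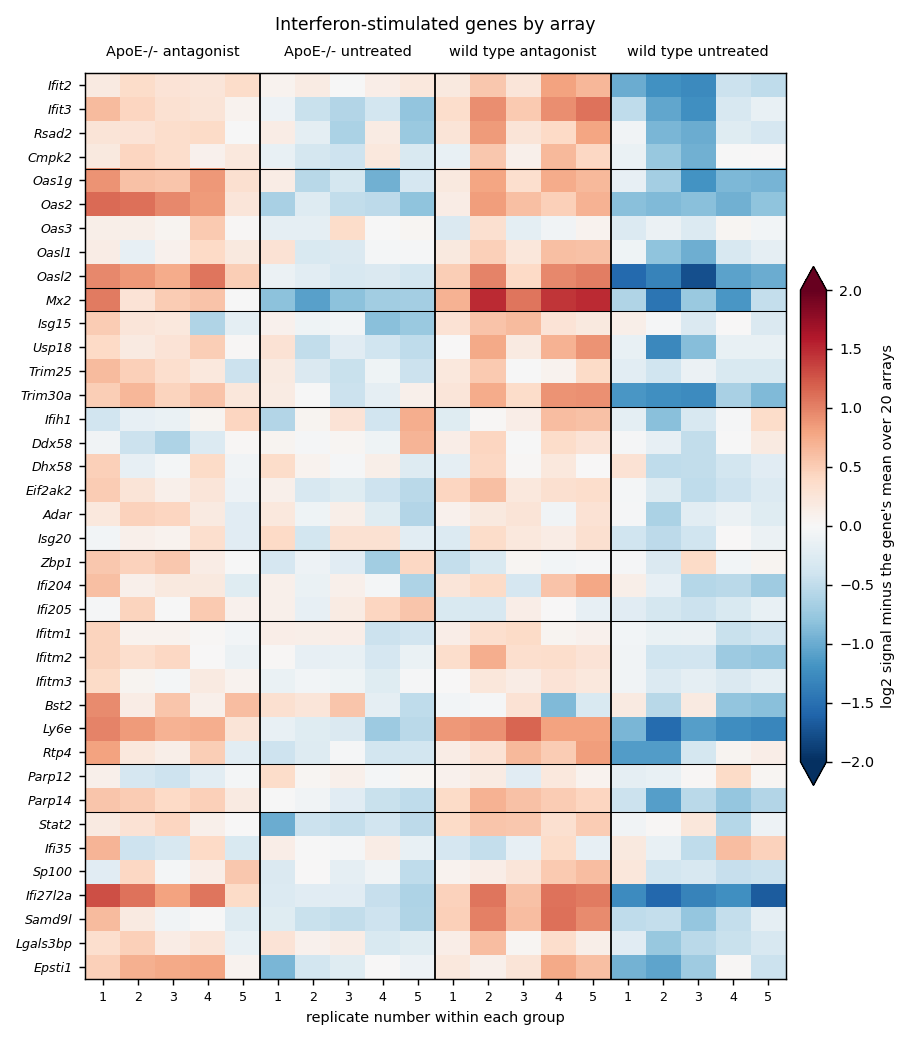
Each row is a measured interferon-stimulated gene, in blocks by role, and each column an array, in the order treated and untreated ApoE-/-, then treated and untreated wild type. Colour is the normalised log2 signal minus the gene's mean over 20 arrays, cut off at the ends of the scale; untreated wild-type arrays are the bluest block, and rows such as Oasl2, Ly6e and Ifi27l2a are red in both treated groups.

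Ifit2, Ifit3, Rsad2 and Cmpk2 encode cytoplasmic effectors: the IFIT proteins bind viral RNA, Rsad2 (viperin) makes a chain-terminating nucleotide and Cmpk2 is its neighbour and a nucleotide kinase. Ifit3 was the member of this group that rose in ApoE-/- livers (0.80 ± 0.19, log2 change ± SE), whereas all 4 rose in wild-type livers, Ifit3 by 1.41 ± 0.19, Rsad2 by 1.02 ± 0.20 and Cmpk2 by 0.69 ± 0.19. In ApoE-/- livers Rsad2 was at 0.50 ± 0.20 (adjusted p = 0.0635) and Cmpk2 at 0.46 ± 0.19 (adjusted p = 0.0721). A second, dimmer Ifit3 probe gave 0.07 in ApoE-/- livers (adjusted p = 0.807) and 0.57 in wild-type livers (adjusted p = 0.0108).

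Ifit2 had log2 signals of 7.21, 7.40, 7.30, 7.27 and 7.40 in treated ApoE-/- livers, against 7.10, 7.20, 7.02, 7.16 and 7.24 in untreated ApoE-/- livers. In wild-type livers it had 7.23, 7.57, 7.27, 7.84 and 7.69 with the antagonist, against 6.04, 5.83, 5.75, 6.61 and 6.53 without it. The ApoE-/- groups overlapped and both sat near the treated wild-type arrays, while the untreated wild-type arrays lay below the other 15. Ifit2 was at 0.17 ± 0.15 in ApoE-/- livers (adjusted p = 0.439) and rose 2.58-fold in wild-type livers (1.37 ± 0.15, adjusted p = 4.58e-07). A second Ifit2 probe gave 0.27 and 1.51.

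The OAS family encodes sensors of double-stranded RNA, many of which make a second messenger activating RNase L, and includes the OAS-like genes Oasl1 and Oasl2. Of the 5 measured, Oas1g, Oas2 and Oasl2 rose in ApoE-/- livers, and these and Oasl1 in wild-type livers. Oas1g rose by 1.06 ± 0.20 and 1.32 ± 0.20 in ApoE-/- and wild-type livers. Oasl1 was at 0.21 ± 0.16 (adjusted p = 0.375) in ApoE-/- livers and rose by 0.89 ± 0.16 in wild-type livers. Oas3, detected on 5 of 20 arrays, was at 0.16 ± 0.13 and 0.10 ± 0.13. Dimmer probes gave 0.22 and 0.43 for Oas1g, neither passing, and 0.09 and 0.44 for Oasl1, in ApoE-/- and wild-type livers.

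Oasl2 had log2 signals of 9.77, 9.68, 9.56, 9.88 and 9.30 in treated ApoE-/- livers, against 8.69, 8.59, 8.49, 8.52 and 8.43 in untreated ApoE-/- livers. Wild-type livers had 9.30, 9.80, 9.21, 9.77 and 9.83 with the antagonist and 7.25, 7.47, 7.05, 7.74 and 7.81 without it. Treated arrays of both genotypes covered nearly the same range, and untreated ones did not overlap them or each other. Oasl2 rose 2.13-fold in ApoE-/- livers (1.09 ± 0.16, adjusted p = 2.68e-05) and 4.35-fold in wild-type livers (2.12 ± 0.16, adjusted p = 1.77e-09). A dimmer Oasl2 probe, detected on 14 arrays, gave 0.26 (adjusted p = 0.234) and 0.51 (adjusted p = 0.0145).

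Oas2 had log2 signals of 6.38, 6.36, 6.22, 6.10 and 5.50 in treated ApoE-/- livers, against 4.62, 5.01, 4.77, 4.74 and 4.45 in untreated ApoE-/- livers. With the antagonist wild-type livers had 5.40, 6.09, 5.86, 5.74 and 5.96, and without it 4.43, 4.37, 4.42, 4.30 and 4.45. The treated arrays of each genotype lay above all of its untreated ones, most of which were near the floor of the scale. The Oas2 probe was detected on all 10 treated arrays, on 1 of 5 untreated ApoE-/- arrays and on 0 of 5 untreated wild-type arrays. Oas2 rose in ApoE-/- livers by a fitted 2.63-fold (1.40 ± 0.15, adjusted p = 1.64e-06), against untreated signals that were below detection on 4 of 5 arrays, and by at least 1.79-fold in wild-type livers (adjusted p = 3.07e-07), where the untreated group gives only a bound. For the bound, each untreated array counted at its dimmest detected probe or at the Oas2 signal, whichever was higher.

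Mx2 belongs to the Mx GTPases, which block virus replication. It had log2 signals of 7.43, 6.66, 6.90, 6.96 and 6.39 in treated ApoE-/- livers, against 5.58, 5.31, 5.56, 5.69 and 5.72 in untreated ApoE-/- livers. Wild-type livers had 7.09, 7.88, 7.46, 7.82 and 7.88 with the antagonist and 5.78, 4.93, 5.65, 5.22 and 5.91 without it. The untreated groups overlapped each other and neither overlapped a treated group. Mx2 rose 2.46-fold in ApoE-/- livers (1.30 ± 0.20, adjusted p = 6.57e-05) and 4.37-fold in wild-type livers (2.13 ± 0.20, adjusted p = 5.87e-08).

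Isg15 is a ubiquitin-like protein, Usp18 removes it from its targets and damps receptor signalling, Trim25 is a ubiquitin ligase acting with Ddx58, and Trim30a is a TRIM protein of mice. Isg15 itself was at 0.36 ± 0.20 in ApoE-/- livers (adjusted p = 0.189) and 0.49 ± 0.20 in wild-type livers (adjusted p = 0.0566). Usp18 was at 0.54 ± 0.22 (adjusted p = 0.0709) in ApoE-/- livers and rose by 1.02 ± 0.22 in wild-type livers. Trim25 rose by 0.46 ± 0.16 in ApoE-/- livers (adjusted p = 0.0408) and by 0.50 ± 0.16 in wild-type livers (adjusted p = 0.0193). The ApoE-/- call of Trim25 was lost without any of 7 single arrays (treated replicates 1 to 4, untreated replicates 2, 3 and 5; 0.36 to 0.47, adjusted p up to 0.116), and the wild-type call without treated replicate 2 (0.43, adjusted p = 0.0585). Dimmer probes for Trim25 (0.01 and 0.26) and Usp18 (-0.09 and 0.23) passed in neither genotype.

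Trim30a had log2 signals of 8.02, 8.20, 7.97, 8.10 and 7.75 in treated ApoE-/- livers, against 7.69, 7.52, 7.09, 7.35 and 7.62 in untreated ApoE-/- livers. In wild-type livers it had 7.76, 8.27, 7.89, 8.42 and 8.44 with the antagonist, against 6.36, 6.30, 6.26, 6.87 and 6.65 without it. Groups did not overlap within either genotype, with a gap in ApoE-/- livers that was narrow beside that in wild-type livers. Trim30a rose 1.47-fold in ApoE-/- livers (0.55 ± 0.15, adjusted p = 0.00949) and 3.18-fold in wild-type livers (1.67 ± 0.15, adjusted p = 4.08e-08).

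The 250 bases before the start of these genes were searched for GAAANNGAAA, the core of the interferon-stimulated response element, on both strands and with overlapping matches counted. RefSeq windows of the mouse build GRCm38.p6 were matched by symbol for 28 of the 38 genes. The motif lay in 10 of these 28 genes (35.7%) and in 936 of 27025 genes with a window (3.46%), or in 10 of 35 member windows (28.6%) and 978 of 32851 in all (2.98%). Genes that rose in wild-type livers held it in 6 of 20 cases and genes that did not pass in 4 of 8. The motif TTCNNNGAA, the core of the gamma-activated site, was in 4 of the 28 genes (14.3%) and in 8.13% of all genes with a window. The windows printed here set these counts beside single genes. Ifit3 rose in both genotypes and has 2 matches. Trim30a and Oasl2 rose in both by amounts that differed between genotypes, and have 1 match and no match. Isg15 has 3 overlapping matches and passed in neither genotype without a block. Capitals mark the motif, which reads TTTCNNTTTC when it lies on the opposite strand, as in Ifit3 and Trim30a. The Ifit3 window is at chr19:34583279-34583528 (plus strand), Trim30a at chr7:104465194-104465443 (minus), Oasl2 at chr5:114896684-114896933 (plus) and Isg15 at chr4:156200819-156201068 (minus).
Ifit3: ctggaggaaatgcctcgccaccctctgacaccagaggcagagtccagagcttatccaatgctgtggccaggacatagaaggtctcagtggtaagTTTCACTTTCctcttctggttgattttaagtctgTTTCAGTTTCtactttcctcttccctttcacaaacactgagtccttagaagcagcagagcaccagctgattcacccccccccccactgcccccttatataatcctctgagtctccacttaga
Trim30a: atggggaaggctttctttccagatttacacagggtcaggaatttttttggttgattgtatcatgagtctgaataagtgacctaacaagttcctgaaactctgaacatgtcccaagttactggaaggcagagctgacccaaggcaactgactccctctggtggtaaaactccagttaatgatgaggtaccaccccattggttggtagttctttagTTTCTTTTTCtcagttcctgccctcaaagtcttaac
Oasl2: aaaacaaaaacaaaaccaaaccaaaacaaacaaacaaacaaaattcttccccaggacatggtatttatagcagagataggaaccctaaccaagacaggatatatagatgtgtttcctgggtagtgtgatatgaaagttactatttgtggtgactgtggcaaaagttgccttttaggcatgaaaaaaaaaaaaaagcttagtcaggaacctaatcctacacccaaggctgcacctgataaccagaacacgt
Isg15: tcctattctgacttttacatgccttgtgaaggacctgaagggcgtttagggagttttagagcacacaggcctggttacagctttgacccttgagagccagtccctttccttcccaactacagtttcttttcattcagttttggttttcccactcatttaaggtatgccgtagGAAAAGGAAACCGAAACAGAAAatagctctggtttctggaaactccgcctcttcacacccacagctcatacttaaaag

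In Ifit3 the matches end 146 and 112 bases before the start of transcription, in Trim30a 26 bases before it, and in Isg15 68, 62 and 56 bases before it. A second Trim30a window, at chr7:104446126-104446375, has no match. A match is a stretch of letters and not a measured binding site. The other genes with a match were Rsad2, Oas1g, Oas3, Ifi205, Ifitm2, Bst2 and Stat2.

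Among genes for RNA sensors and RNA-acting enzymes the changes were small. Ifih1 and Ddx58, which detect viral double-stranded RNA, and Dhx58, their regulator, passed in neither genotype in the fit without a block, with changes of -0.05, -0.41 and 0.07 in ApoE-/- livers and 0.42, 0.34 and 0.36 in wild-type livers. Eif2ak2, the RNA-dependent kinase that halts translation, rose by 0.48 ± 0.13 in ApoE-/- livers and by 0.68 ± 0.13 in wild-type livers. Adar, which edits adenosine in RNA, and Isg20, an exonuclease, rose in wild-type livers, by 0.40 ± 0.15 (adjusted p = 0.0457) and at least 1.10-fold (adjusted p = 0.0347). In ApoE-/- livers they were at 0.33 ± 0.15 (adjusted p = 0.119) and -0.04 ± 0.16 (adjusted p = 0.881). Both wild-type calls depended on single arrays. Adar lost its call without any of 11 arrays (treated ApoE-/- 1 and 4, untreated ApoE-/- 2 and 4, treated wild type 1, 2, 3 and 5, untreated wild type 2, 3 and 5; 0.30 to 0.42, adjusted p up to 0.136), and Isg20 without any of 7 (treated wild type 2 to 5, untreated wild type 1 to 3; 0.38 to 0.44, adjusted p up to 0.0877). Other Adar probes gave 0.26 to 0.65 in wild-type livers, and 1 of them passed (0.65, adjusted p = 0.00681). A dimmer Dhx58 probe passed there as well (0.40, adjusted p = 0.0274).

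Zbp1, a sensor of Z-form nucleic acid, and the PYHIN genes Ifi204 and Ifi205, whose family senses DNA, gave 1 rise of 3 in each genotype, Zbp1 in ApoE-/- and Ifi204 in wild-type livers. Zbp1 rose by 0.52 ± 0.17 in ApoE-/- livers (adjusted p = 0.0266) and was at -0.18 ± 0.17 in wild-type livers (adjusted p = 0.458). A second Zbp1 probe gave -0.07 and -0.54 with neither passing, and the ApoE-/- call was lost without any of 5 arrays (treated replicates 1 to 3, untreated replicates 1 and 4; 0.40 to 0.49, adjusted p up to 0.0876). Ifi204 was at 0.29 ± 0.20 (adjusted p = 0.309) in ApoE-/- livers and rose by 0.70 ± 0.20 in wild-type livers. Ifi205 was at -0.02 ± 0.14 and 0.16 ± 0.14, from a probe detected on 5 of 20 arrays.

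Ly6e, a membrane protein that blocks entry of some viruses and helps that of others, rose in ApoE-/- livers, and Ly6e, Ifitm1, Ifitm2, Ifitm3 and Rtp4 rose in wild-type livers, by the brightest probe of each gene. The IFITM proteins hinder viral fusion and Rtp4 binds and restrains viral replication complexes. Ifitm2 was at 0.36 ± 0.14 (adjusted p = 0.0528) in ApoE-/- livers and rose by 0.88 ± 0.14 in wild-type livers, and Rtp4 was at 0.57 ± 0.23 (adjusted p = 0.0674) and rose by 0.96 ± 0.23. Ifitm1 and Ifitm3 were at 0.20 ± 0.13 and 0.24 ± 0.09 in ApoE-/- livers and rose by 0.43 ± 0.13 and 0.38 ± 0.09 in wild-type livers. The 2 dimmer Ifitm1 probes passed in both genotypes, with 0.87 (adjusted p = 8.45e-05) and 0.68 (adjusted p = 6.9e-05) in ApoE-/- livers and 1.15 and 0.94 in wild-type livers, so Ifitm1 rose in ApoE-/- livers by 2 of its 3 probes. Bst2, tetherin, which holds budding virus on the cell, was at 0.38 ± 0.25 and 0.17 ± 0.25. Probes for the IFITM, OAS1 and PYHIN families may bind transcripts of close relatives.

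Ly6e had log2 signals of 13.15, 13.01, 12.85, 12.89 and 12.41 in treated ApoE-/- livers, against 12.00, 11.92, 11.86, 11.42 and 11.61 in untreated ApoE-/- livers. Wild-type livers had 13.03, 13.07, 13.31, 12.96 and 12.95 with the antagonist and 11.24, 10.61, 11.05, 10.91 and 10.85 without it. The treated groups overlapped each other, and the untreated wild-type arrays were the lowest of the 20. Ly6e rose 2.14-fold in ApoE-/- livers (1.10 ± 0.14, adjusted p = 1.08e-05) and 4.39-fold in wild-type livers (2.13 ± 0.14, adjusted p = 5.26e-10). A second Ly6e probe gave 1.08 and 2.21.

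Parp14, an ADP-ribosyltransferase of macrophage and antiviral responses, rose by 0.68 ± 0.13 in ApoE-/- livers and 1.21 ± 0.13 in wild-type livers, while Parp12, of the same enzyme family, was at -0.28 ± 0.13 (adjusted p = 0.0943) and 0.03 ± 0.13 (adjusted p = 0.864). Stat2, the signalling subunit of the interferon-activated complex, rose by 0.76 ± 0.14 and 0.56 ± 0.14. Epsti1, first known from breast epithelium and stroma, rose by 0.88 ± 0.21 and 1.01 ± 0.21. Lgals3bp, a secreted galectin-binding glycoprotein, was at 0.22 ± 0.15 (adjusted p = 0.291) in ApoE-/- livers and rose by 0.71 ± 0.15 in wild-type livers. Sp100, a nuclear body protein, was at 0.37 ± 0.16 (adjusted p = 0.0884) in ApoE-/- livers and rose at least 1.13-fold in wild-type livers, where no untreated array detected it. A dimmer Sp100 probe passed in both (0.40 and 0.35). Ifi35 was at -0.01 ± 0.22 and -0.28 ± 0.22 and passed in neither.

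Ifi27l2a encodes a small membrane protein of the Ifi27 family. It had log2 signals of 11.53, 11.33, 11.06, 11.32 and 10.63 in treated ApoE-/- livers, against 9.97, 10.02, 10.02, 9.78 and 9.63 in untreated ApoE-/- livers. Wild-type livers had 10.71, 11.32, 10.84, 11.33 and 11.29 with the antagonist and 9.00, 8.68, 8.92, 9.02 and 8.59 without it. Its arrays fell into a high band of both treated groups, a middle band of untreated ApoE-/- livers and a low band of untreated wild-type livers. Ifi27l2a rose 2.44-fold in ApoE-/- livers (1.29 ± 0.16, adjusted p = 7.04e-06) and 4.77-fold in wild-type livers (2.25 ± 0.16, adjusted p = 1.22e-09), the largest change of any member in wild-type livers.

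Samd9l is an antiviral and growth-restraining protein that halts translation. It had log2 signals of 10.11, 9.65, 9.40, 9.46 and 9.22 in treated ApoE-/- livers, against 9.24, 9.02, 8.97, 9.06 and 8.87 in untreated ApoE-/- livers. With the antagonist wild-type livers had 9.95, 10.48, 10.09, 10.57 and 10.42, and without it 8.96, 9.00, 8.69, 8.99 and 9.28. The ApoE-/- groups met at their edges and the wild-type groups were apart. Samd9l rose 1.45-fold in ApoE-/- livers (0.54 ± 0.15, adjusted p = 0.0112) and 2.49-fold in wild-type livers (1.32 ± 0.15, adjusted p = 8.35e-07). Fitting slides as blocks ended the ApoE-/- call (0.46, adjusted p = 0.0741).

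**Figure D2:**
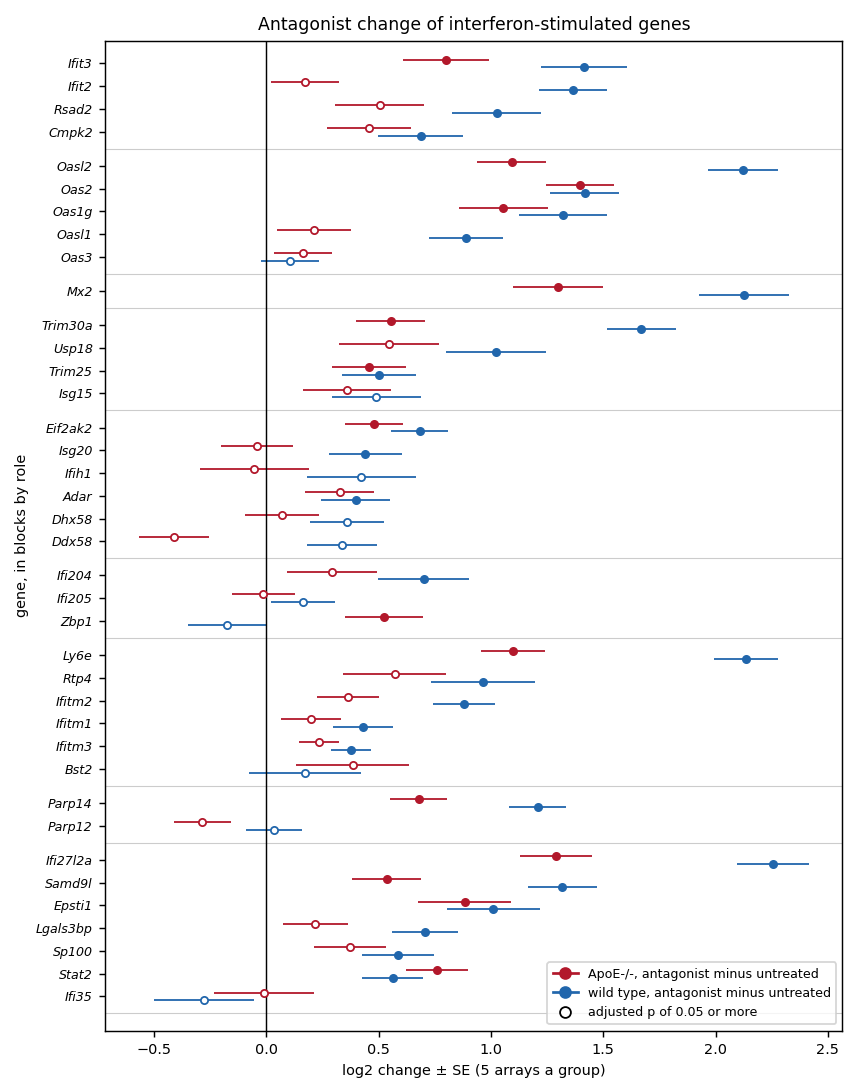
Points are log2 changes of antagonist minus untreated with their SE, in ApoE-/- (red) and wild-type (blue) livers, 5 arrays a group, for each measured gene in blocks by role; open points had an adjusted p of 0.05 or more. For 33 of the 38 genes the blue point lies to the right of the red one, and no filled point lies below 0.

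Within each batch the rises were measured again. In ApoE-/- livers 16 genes rose in batch 1 alone, against 15.3% of all genes, and 8 in batch 2 alone, against 4.89%, with 2 arrays a group. In batch 2 the untreated ApoE-/- arrays were alone on their slide, so treatment and slide cannot be told apart in those livers. In wild-type livers 23 rose in batch 1, against 17.2% of all genes, and 22 in batch 2, against 15.3%. Ifit2, Oasl2, Trim30a, Ly6e, Ifi27l2a, Oas2, Mx2 and Samd9l passed in both batches in wild-type livers. In ApoE-/- livers Oasl2, Ly6e, Ifi27l2a and Oas2 passed in both. Mx2 was there at 1.51 in batch 1 and 0.97 in batch 2 (adjusted p = 0.0575), Trim30a at 0.63 and 0.44 (adjusted p = 0.146) and Samd9l at 0.64 and 0.38 (adjusted p = 0.18). Scaling arrays to equal medians in place of quantiles moved the median change of all genes by 0.26 in wild-type livers, so that 38.4% of all genes rose and 5.55% fell there, and 32 members rose. In ApoE-/- livers 18.2% of all genes rose and 6.89% fell, and 18 members rose.

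The antagonist response of the genes was smaller in ApoE-/- than in wild-type livers for 5 of the 38 by the test of the difference itself, and larger for 0. Among all genes 2.74% passed, 1.86% as smaller and 0.886% as larger. At an unadjusted p under 0.05 limma's test gave 14 smaller and 1 larger, against 1196 and 815 of all 12976 tested. The 5 past the adjusted threshold were Ifit2 (-1.19 ± 0.21, adjusted p = 0.00425), Trim30a (-1.12 ± 0.22, adjusted p = 0.00706), Ly6e (-1.04 ± 0.20, adjusted p = 0.00706), Oasl2 (-1.03 ± 0.22, adjusted p = 0.0131) and Ifi27l2a (-0.97 ± 0.23, adjusted p = 0.0236). Each value is the ApoE-/- change minus the wild-type change. All 5 were detected on every array. The difference was below 0 for 33 of the 38 genes, with a median of -0.36, beside -0.02 over all genes. Scaling arrays to equal medians moved the median of all genes to -0.19 and that of the 38 to -0.57. Of the 38, 10 then passed as smaller and 0 as larger, against 3.99% and 0.239% of all genes.

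Genes just outside the threshold were Samd9l (-0.78, adjusted p = 0.0562), Ddx58 (-0.75, adjusted p = 0.0763), Parp14 (-0.53, adjusted p = 0.13), Oasl1 (-0.68, adjusted p = 0.133) and Mx2 (-0.83, adjusted p = 0.134). With the replicate number as a block 8 genes passed, the 5 above with Ddx58 (adjusted p = 0.0164), Oasl1 (adjusted p = 0.0447) and Samd9l (adjusted p = 0.0492). Of all genes 2.83% passed as smaller and 1.65% as larger in that fit. The dimmer Oasl2 probe was at -0.24 (adjusted p = 0.701), whereas second probes for Ifit2 (-1.24) and Ly6e (-1.13) passed. For Oas2 no difference is given, since the wild-type change is a bound. Zbp1 had the highest positive difference (0.70, adjusted p = 0.141).

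Within batch 1 Ifit2 (-1.28), Ly6e (-1.09) and Oasl2 (-1.11) kept their calls, while Trim30a was at -1.04 (adjusted p = 0.0636) and Ifi27l2a at -0.79 (adjusted p = 0.179). Within batch 2 Ifit2 (-1.06, adjusted p = 0.0352) kept its call and the others were at -0.91 to -1.24, with adjusted p of 0.0508 to 0.127. There the untreated ApoE-/- arrays were alone on their slide, so the difference and slide cannot be told apart. All 5 stayed past the threshold with slides fitted as blocks, where batch 1 counted as a single slide because its slides are not known. In that fit the untreated ApoE-/- arrays of batch 2 add nothing to the size of the difference. Without treated wild-type replicate 2 or 4 the call of Ifi27l2a was lost (-0.91 for both, adjusted p up to 0.0533).

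Without the antagonist, 6 of the 38 genes were higher in ApoE-/- than in wild-type livers, against 4.13% of all genes, and 0 were lower, against 1.39% (5.52% of all genes passed in either direction). At an unadjusted p under 0.05 limma's test gave 12 higher and 1 lower, against 1293 and 846 of all 12976 tested. The same 5 genes were among the 6: Oasl2 (2.12-fold, 1.08 ± 0.16, adjusted p = 9.87e-05), Ifi27l2a (2.06-fold, 1.04 ± 0.16, adjusted p = 0.00023), Ifit2 (1.99-fold, 0.99 ± 0.15, adjusted p = 0.000211), Trim30a (1.95-fold, 0.97 ± 0.15, adjusted p = 0.000349) and Ly6e (1.78-fold, 0.83 ± 0.14, adjusted p = 0.000796). This contrast and the difference in response share both untreated groups, so the overlap of genes is not separate evidence. All 5 untreated ApoE-/- arrays lay above all 5 untreated wild-type arrays for these genes and for Oas2, 6 in all, against 4.5% of all genes, although Oas2 was below detection on 9 of these 10 arrays. The dimmer Oasl2 probe was at 0.20 (adjusted p = 0.624). A dimmer Ifitm1 probe passed (0.46, adjusted p = 0.0118) where the brightest was at 0.14 (adjusted p = 0.688).

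Ifi205 was the other gene called (0.51 ± 0.14, adjusted p = 0.0326), from a probe detected on 2 of 5 untreated ApoE-/- arrays and 0 of 5 untreated wild-type arrays, which gives no fold. A second Ifi205 probe was at 0.22 (adjusted p = 0.504). Its call was lost without any of 7 arrays (untreated ApoE-/- 3 to 5, untreated wild type 1 to 4; 0.43 to 0.53, adjusted p up to 0.0947). The median of all 38 was 0.24, beside -0.002 over all genes. Within batch 1 the 5 genes were higher by 0.96 to 1.34 and all passed. Within batch 2 they were higher by 0.63 to 0.90 and none passed, where 0.64% of all genes passed as higher. In that batch the untreated arrays of each genotype were on separate slides, so genotype and slide cannot be told apart. The authors' scaling sets ran by genotype within batch, so genotype and scaling set cannot be told apart either.

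With the antagonist, the ApoE-/- and wild-type levels of these 5 genes lay close. The ApoE-/- minus wild-type value was 0.08 ± 0.16 for Ifi27l2a, 0.05 ± 0.16 for Oasl2, -0.15 ± 0.15 for Trim30a, -0.20 ± 0.15 for Ifit2 and -0.21 ± 0.14 for Ly6e, with adjusted p of 0.53 to 0.933. Their groups overlapped. Of the 38 genes 0 were higher in treated ApoE-/- livers, against 2.93% of all genes, and 2 were lower, against 2.15% (5.08% in either direction). At an unadjusted p under 0.05 limma's test gave 3 higher and 4 lower, against 1080 and 1187 of all 12976 tested. No gene of the 38 had its treated groups fully apart, against 2.37% of all genes with ApoE-/- higher and 2.13% with it lower. The 2 lower genes were Samd9l (-0.73 ± 0.15, adjusted p = 0.00715) and Mx2 (-0.76 ± 0.20, adjusted p = 0.0314), whose untreated ApoE-/- minus wild-type values were 0.05 and 0.07. With the replicate number as a block Ddx58 (-0.51, adjusted p = 0.0132) passed as lower too and Bst2 (0.66, adjusted p = 0.017) as higher, 4 in all. Of all genes 4.28% passed as higher and 3.68% as lower in that fit. Within batch 1 Samd9l and Mx2 were at -0.45 and -0.48, not passing, and within batch 2 at -1.15 (adjusted p = 0.0104) and -1.18 (adjusted p = 0.0431). Mx2 lost its call without any of 7 arrays (treated ApoE-/- 2 to 5, treated wild type 2, 4 and 5; -0.78 to -0.64, adjusted p up to 0.0845).

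**Figure D3:**
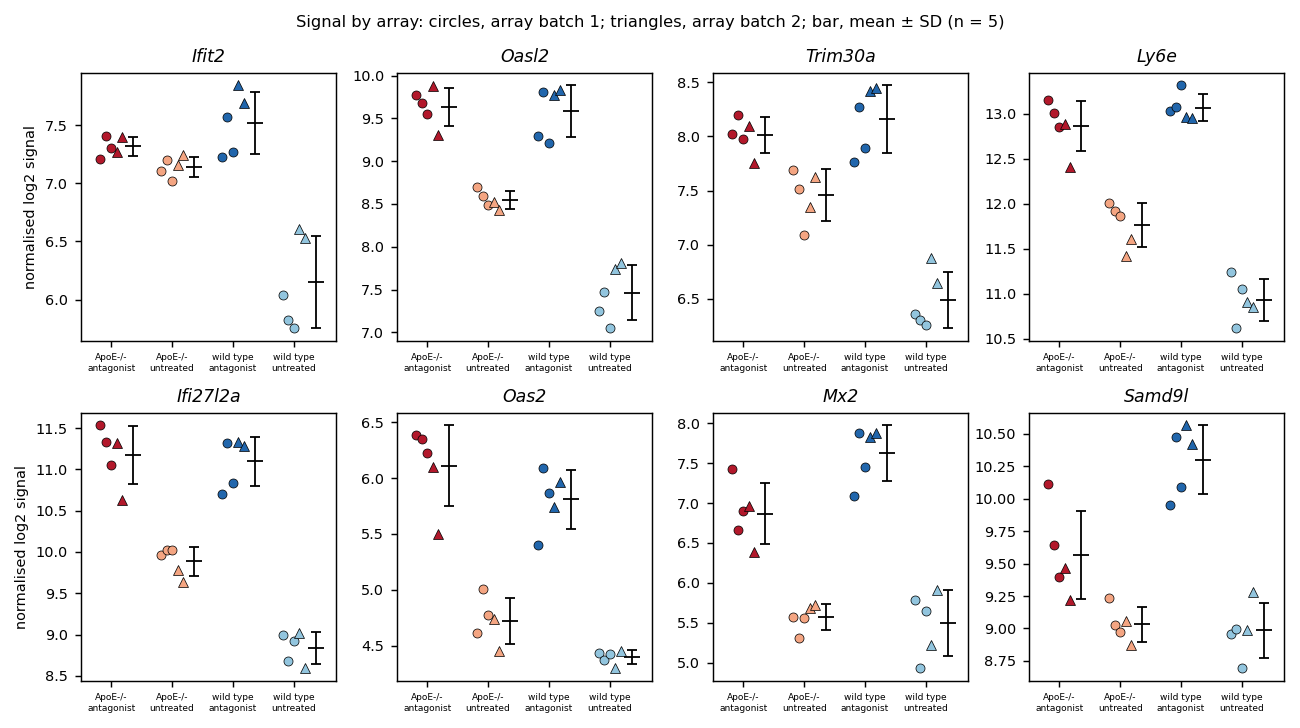
Each panel shows the normalised log2 signal of a gene on every array, with circles for batch 1, triangles for batch 2 and a bar for the mean ± SD of 5 arrays. In Ifit2, Oasl2, Trim30a, Ly6e and Ifi27l2a the untreated ApoE-/- arrays lie above the untreated wild-type arrays while the treated groups overlap; in Oas2, Mx2 and Samd9l the untreated groups lie close together.

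The machinery upstream of these genes was measured on the same arrays. Each count of genes that rose or fell, here and in the lists that follow, stands beside the shares over all genes. These were 16.3% up and 13.3% down in ApoE-/- livers and 21.7% up and 16.7% down in wild-type livers. Of 20 interferon ligand genes 5 were measured, Ifna1, Ifna6, Ifna15, Ifnab and Ifnz. By limma's test 0 of 5 passed in either genotype, and 0 at an unadjusted p under 0.05, with changes of -0.28 to -0.04 in ApoE-/- livers and -0.44 to 0.19 in wild-type livers. All 5 together summed to a signal of only 165.5 to 240.1 in treated and 183.9 to 276.1 in untreated ApoE-/- livers. In treated and untreated wild-type livers the sums were 166 to 228.7 and 186.7 to 258.5. The offset of 16 shrinks folds of such dim probes, so a change could be missed. Probes for Ifnb1 and for Ifng, the type II ligand, were detected on 0 of 20 arrays, which says only that they were not above background there. Ifnar1 was likewise detected on 0 arrays, and Ifnar2 was at 0.14 ± 0.19 and 0.21 ± 0.19 (adjusted p = 0.655 and 0.415). Of 5 measured receptor genes 1 rose in ApoE-/- livers and 3 rose in wild-type livers: Ifnlr1, the interferon lambda receptor, by 0.88 ± 0.20 in ApoE-/- and 1.25 ± 0.20 in wild-type livers, and Il10rb and Ifngr1 by 1.09 ± 0.18 and 0.89 ± 0.14 in wild-type livers. Ifngr1, a subunit of the interferon gamma receptor, differed between genotypes in its response (-0.89, adjusted p = 0.0198).

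Of 4 measured signal transduction genes 0 rose in either genotype by limma's test, also at an unadjusted p under 0.05. Irf9 was at 0.17 ± 0.17 and 0.29 ± 0.17 (adjusted p = 0.52 and 0.21), and Jak2, a kinase of the interferon gamma receptor, fell by 0.51 ± 0.13 in ApoE-/- livers. Of 6 interferon regulatory factor genes 5 rose in each genotype, against 16.3% of all genes in ApoE-/- and 21.7% in wild-type livers. Irf7, the factor that drives interferon alpha genes and is itself interferon-stimulated, rose by 1.16 ± 0.19 and 1.43 ± 0.19. Irf1 rose by 1.11 ± 0.15 and 1.53 ± 0.15 and Irf5, which acts below Toll-like receptors, by 0.86 ± 0.13 and 1.05 ± 0.13. Irf8, which macrophages and dendritic cells need, rose by 0.42 ± 0.14 and 1.22 ± 0.14, a difference of -0.80 (adjusted p = 0.0314).

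Of 9 measured negative regulators, a list that holds Usp18 and Isg15, 3 rose in ApoE-/- livers and 4 in wild-type livers, against 16.3% and 21.7% of all genes. Socs3, a cytokine-induced inhibitor of Jak signalling, rose by 0.79 ± 0.27 and 2.85 ± 0.27 (difference -2.05, adjusted p = 0.00537), and Ptpn6, a phosphatase of blood cells, by 1.60 ± 0.21 and 2.14 ± 0.21. Of 13 genes of nucleic acid sensing 5 rose and 1 fell in ApoE-/- livers, and 7 rose and 1 fell in wild-type livers. Unc93b1, which carries endosomal Toll-like receptors, rose by 1.00 ± 0.14 and 1.50 ± 0.14, and Cgas, the DNA sensor, by 0.85 ± 0.20 and 1.25 ± 0.20. Tlr7, a receptor the antagonist is directed at, rose by 0.52 ± 0.18 and 1.35 ± 0.18, while Tlr9 was detected on at most 1 array.

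Of 12 interferon-gamma-inducible GTPases and targets 7 rose in ApoE-/- livers and 6 in wild-type livers, with medians of 0.65 and 0.47, and 0 passed limma's test of the difference (1 at an unadjusted p under 0.05). Gbp2, a guanylate-binding protein, rose by 1.34 ± 0.23 and 1.28 ± 0.23, and the chemokine gene Cxcl9 by 1.38 ± 0.24 and 1.16 ± 0.24. Gbp3 rose by 1.14 ± 0.18 and 0.99 ± 0.18, and Igtp by 1.37 ± 0.24 and 0.66 ± 0.24.

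Markers of immune and vessel cells moved beside the interferon-stimulated genes, and their part in the result was not tested. The shares of all genes that rose and fell, 16.3% and 13.3% in ApoE-/- and 21.7% and 16.7% in wild-type livers, stand beside each of these counts. Of 11 macrophage and Kupffer cell markers 6 rose and 1 fell in ApoE-/- livers and 7 rose and 2 fell in wild-type livers. Their summed signal was 10930 to 16700 in treated and 8366 to 10490 in untreated ApoE-/- livers, and 9701 to 12640 in treated and 2858 to 4314 in untreated wild-type livers. In untreated livers, where the 5 genes differed, 8 of these 11 markers were higher and 1 lower in ApoE-/- than in wild type, against 4.13% and 1.39% of all genes. There 4 of 7 endothelial, 3 of 7 neutrophil and 1 of 10 plasmacytoid dendritic cell markers were higher too, and 0 were lower. The plasmacytoid dendritic cell marker was Irf8, which is also counted among the interferon regulatory factors. The response differed between genotypes for 4 of the 11 macrophage and Kupffer cell markers, named after their values were seen: C1qb (-1.42), C1qc (-1.37), Lyz2 (-1.49) and Cd163 (1.23), against 1.86% of all genes below 0 and 0.886% above it. It was also smaller for 3 of 7 endothelial, 3 of 7 neutrophil and 1 of 10 plasmacytoid dendritic cell markers (again Irf8), and larger for 0 of these. Clec4f, a Kupffer cell lectin, passed in neither genotype for the antagonist, and Cd5l and Itgam did not pass the detection filter.

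Of 10 plasmacytoid dendritic cell markers 5 rose in ApoE-/- livers and 7 in wild-type livers, a list that includes the interferon-stimulated gene Bst2 and Irf8. Siglech, a receptor that marks these cells in mice, rose by 0.88 ± 0.18 and 0.46 ± 0.18, and the list summed to 1490 to 1785 in treated and 1044 to 1354 in untreated ApoE-/- livers, and to 1369 to 1410 in treated and 832.8 to 962.5 in untreated wild-type livers. Ccr9, Spib and Cd209d did not pass the filter. Of 7 neutrophil markers 1 rose in ApoE-/- and 5 in wild-type livers, with sums of 493.2 to 1197 and 509.1 to 831.7 in treated and untreated ApoE-/- livers and of 621.4 to 1388 and 184.1 to 334.5 in treated and untreated wild-type livers. Of 7 endothelial markers 1 rose and 2 fell in ApoE-/- livers and 4 rose in wild-type livers, with sums of 3861 to 4803 and 3787 to 4357 in treated and untreated ApoE-/- livers and 4140 to 5476 and 2843 to 4005 in treated and untreated wild-type livers. Of 6 T and NK cell markers 5 rose in ApoE-/- and 4 in wild-type livers, with sums of 279.5 to 402.7 and 143.4 to 171.7 in treated and untreated ApoE-/- livers and 232.8 to 289.3 and 143.5 to 186.8 in treated and untreated wild-type livers. Cd79b, 1 of 2 measured B cell markers, rose in both. Of 10 hepatocyte markers 3 rose in ApoE-/- and 2 in wild-type livers.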

How the data were processed

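Liver RNA of 20 samples was measured on Illumina mouse BeadChips. Groups were taken from the labels, 5 arrays each. The authors deposited a non-normalized signal intensity for 45281 probes with a detection p-value per array. Array means were equal within genotype and batch, so some scaling came before deposit. In the sources used here it is not given. The submitters' processing notes name GenomeStudio and BeadStudio. The authors' normalized intensities served as an alternative.

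In R 4.3.3 with limma 3.58.1, neqc was applied (normexp with detection p-values, quantile normalization, offset 16, which shrinks folds of dim probes). Probes detected (p under 0.05) on at least 5 of 20 arrays were kept, 18285 in number, and the probe with the highest mean stood for each gene. Further kept probes existed for 15 members. Where their calls differ they are given, with p-values adjusted over all kept probes. A limma fit of 4 group means over all 20 arrays, with empirical Bayes moderation, gave the antagonist contrasts, their difference and both genotype contrasts, each with Benjamini-Hochberg adjustment over all 12976 entries. Tested on simulated data with 200 of 12976 entries changed by log2 0.5, 1 or 2, the fit called 25.5%, 89.5% and 99.5% of them in wild type, and 3.5%, 74.5% and 99.5% for the difference. Of the calls, 4.33% to 7.27% were false in wild type and 5.1% to 12.5% for the difference. The simulation changed fewer entries than passed in the real contrasts and used independent noise without batches. Its rates therefore do not carry over to the real fit. Batches and slides were read from the array names, which give no slide for batch 1, so the slide block held that batch as a single slide. Deviations of same-numbered arrays from their group means correlated over 0.1 in 5 of 5 pairs within ApoE-/- (0.17 to 0.43), within wild type (0.30 to 0.41) and between treated genotypes (0.11 to 0.27). The number was therefore fitted as a block in an alternative, although the labels state no pairing. Some arrays with other numbers in the same batch passed 0.1 too. Treated wild-type replicate 2 was at 0.41 with untreated replicate 1 and at 0.33 with untreated replicate 2. The rule thus cannot tell pairing from batch. Between untreated genotypes not every same-number pair passed it (-0.0018 to 0.49). The reported fit has no block, and blocked values are given where they change a call. The members and lists were chosen with earlier results of these data known. Genes given array by array were those with the 5 smallest adjusted p in each antagonist contrast, past the threshold in the difference, or among the 5 smallest past it in a genotype contrast. From the other lists, up to 4 genes past the threshold and a few fixed genes were named. Alternatives covered the detection filter, scaling, background, source of values, probes, batch, slide, replicate block, groups fitted and single arrays. The number of arrays limits the precision.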

Additional observations from a re-analysis of the deposited data

Results flagged for a closer look

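Single arrays stood apart from the other 4 of their group in 6 of 152 member groups, where chance gives about 1 in 20. Ddx58 was at 7.59 on untreated ApoE-/- replicate 5, against 6.83 to 6.97 on the others of that group, and Stat2 at 5.65 on untreated ApoE-/- replicate 1, against 6.11 to 6.26. In treated ApoE-/- livers Oas3 was at 5.19 on replicate 4, against 4.69 to 4.78, and Ifitm1 at 13.79 on replicate 1, against 13.29 to 13.43. In wild-type livers Ifitm2 was at 12.2 on treated replicate 2, against 11.75 to 11.83, and Sp100 at 5.05 on untreated replicate 1, against 4.38 to 4.50. All are log2 signals.

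The antagonist response differed between genotypes, ApoE-/- minus wild type, by -1.19 for Ifit2, -1.12 for Trim30a, -1.04 for Ly6e, -1.03 for Oasl2 and -0.97 for Ifi27l2a, each past the threshold in the test of the difference.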

How the results depend on the processing

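Counts are of the 38 members past the threshold in either direction. The antagonist counts, 15 in ApoE-/- and 28 in wild-type livers, stayed within 1.5 times under every alternative except batch 2 alone, which gave 8 in ApoE-/- livers. There 4.89% of all genes passed as higher and 3.14% as lower. The difference in response, 5 in the reported setting, gave 10 with arrays scaled to equal medians, 8 with a batch block, 3 within batch 1 and 1 within batch 2. In that order, 3.99%, 2.64%, 0.748% and 1.02% of all genes passed as smaller and 0.239%, 1.58%, 0.385% and 0.809% as larger. The untreated genotypes, 6 in the reported setting, gave 0 in batch 2 alone, where 0.64% of all genes passed as higher and 0.486% as lower. The treated genotypes, 2 in the reported setting, gave 1 without a detection filter, in batch 1 alone and in a fit of the groups compared, and 4 with batch as a block, with the slide as a block and without the 2 untreated ApoE-/- arrays of the separate slide, an alternative chosen after seeing the data. In that order, 1%, 1.18%, 1.65%, 4.22%, 4.14% and 2.91% of all genes passed as higher. As lower, 0.774%, 0.655%, 0.994%, 3.39%, 3.44% and 2.13% passed. Leaving out single arrays gave 13 to 20 in ApoE-/- livers, 25 to 29 in wild-type livers, 4 to 7 for the difference, 5 to 7 for untreated and 1 to 3 for treated genotypes, with 1 without treated wild-type replicate 2, 4 or 5 or treated ApoE-/- replicate 2, 3 or 4. Of all genes, these fits called 14.1% to 17.9% up and 10.9% to 14.5% down in ApoE-/- livers. In wild-type livers they called 19.9% to 22.1% up and 14.8% to 17.2% down. For the difference the shares were 0.555% to 1.76% up and 1.25% to 2.64% down. Untreated genotypes gave 3.37% to 4.53% up and 1.06% to 1.55% down, and treated genotypes 2% to 4.2% and 1.3% to 3.49%. The cause of these shifts was not tested. Of 6222 alternative values of single members, 5992 kept their side of the threshold, 126 gained a call and the rest lost one. None of the 6222 reversed a call: 0 called values changed sign, while values not called crossed 0 under some alternatives.

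The fit with the replicate block gave 17 up and 1 down in ApoE-/- livers, 31 up in wild-type livers, 8 for the difference (5 without the block), 7 up and 1 down for untreated genotypes, where Parp14 (0.43) and Stat2 (-0.46) gained a call, and 1 up and 3 down for treated genotypes, 4 in all (2 without the block). It changed no other call of a member. Over all genes that fit called 19.8% up and 16.5% down in ApoE-/- livers and 24.5% and 20.2% in wild-type livers. For the difference it called 1.65% up and 2.83% down, for untreated genotypes 5.23% and 2.42%, and for treated genotypes 4.28% and 3.68%. Batch as a block gave 18 up and 1 down in ApoE-/- livers, against 19.3% and 16.1% of all genes. Of 30 same-number pairs of arrays 27 correlated over 0.1, with a median of 0.27, against 0.09 for other numbers of the same batch, and 14 of 20 arrays correlated best with their own number.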
